A study of Mus musculus with 8 samples.

Results

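Small nucleolar RNAs (snoRNAs) were followed through PML knockdown and embryoid body formation in a mouse embryonic stem cell (ESC) line. They were taken as the probe sets that the platform annotation names with exactly 1 gene symbol of the Snora or Snord kind, with the brightest probe set kept where a symbol had more than 1. This gave 51 snoRNAs among the 19938 genes of the array table, 31 of the box C/D class (symbols Snord) and 20 of the H/ACA class (symbols Snora). A further 36 snoRNA probe sets carried several symbols and were not counted. The set was selected on the differences between PML KD and WT arrays at day 0 and at day 4, because several of its RNAs differed strongly and in opposite directions in these 2 comparisons, so the knockdown values of all 51 are given as a description, without p-values.

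The 4 groups, each measured on 2 Affymetrix mouse gene arrays, were PML knockdown (KD) embryoid bodies (EBs) at day 4, WT EBs at day 4, PML KD ESCs at day 0 and WT ESCs at day 0. All are CGR8 cells, an ESC line that grows without feeder cells, labelled with background strain C57BL/6 and donor strain 129P2/OlaHsd. ESCs were kept with leukaemia inhibitory factor (LIF), and EBs, aggregates in which ESCs begin to form early lineages, were made in hanging drops without it. In the PML KD groups a short hairpin RNA against PML, the scaffold protein of PML nuclear bodies, was expressed stably from a pLKO.1 lentiviral vector after puromycin selection. Viruses of the empty vector are also mentioned in the protocol, but the sources used here do not give whether the WT cells carried it or how many clones the PML KD line holds. No label states that the 2 arrays of a group hold RNA of separate cultures. The p-values then cover the spread among these arrays alone, and it may be technical.

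snoRNAs are short nuclear RNAs that work as guides. In the H/ACA class the RNA pairs with ribosomal or spliceosomal RNA and its partner dyskerin turns the chosen uridine into pseudouridine, while in the box C/D class fibrillarin adds a methyl group to the ribose at the paired site. Some, among them the U3, U8, U14, U17 and U22 RNAs, are instead needed for cleavage of the ribosomal RNA precursor. Most vertebrate snoRNAs are cut out of the introns of other genes, very often genes for ribosomal proteins and translation factors, or of non-coding host genes of the Snhg family whose spliced RNA has no known protein product. The arrays detect whatever RNA hybridises to a probe set, so a mature snoRNA and its intronic precursor cannot be told apart, and fewer cells with an RNA cannot be told apart from less RNA per cell. RNA was purified on a column kit, and how well it retained short RNAs was not tested.

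The targeted transcript lay at log2 signals of 10.54 and 10.69 in PML KD EBs and 10.88 and 10.84 in WT EBs, and at 11.10 and 11.07 in PML KD ESCs and 11.70 and 11.68 in WT ESCs, so that Pml differed by -0.24 ± 0.08 at day 4 and by -0.60 ± 0.08 at day 0 (SE of the limma fit). All 8 measured ESC markers fell and all 12 measured markers of differentiating EBs rose in WT EBs relative to WT ESCs. Of all genes 25.6% fell and 24.3% rose there (limma, adjusted p under 0.05). The PML KD ESC arrays stood apart in 2 of 3 measured Y-linked transcripts. Eif2s3y had 5.20 and 4.95 on them and 9.86 to 10.20 on the rest. Uty had 5.40 and 5.77 on them and 9.03 to 9.38 on the rest. Kdm5d did not set them apart, with 5.42 to 5.85 over all 8 arrays. At day 0, knockdown and whatever else separates the cultures cannot be told apart. The same holds for PML KD EBs against PML KD ESCs, since Eif2s3y had a mean of 9.92 in PML KD EBs. The differences at day 4 and in WT over time do not use the PML KD ESC arrays, but their SEs and p-values come from 1 model of all 8 arrays. At day 4 too, knockdown and any other difference between the PML KD and WT lines cannot be told apart.

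In PML KD EBs most snoRNAs had less signal than in WT EBs. Both PML KD arrays lay below both WT arrays for 45 of the 51, where 33.5% of all genes did so, and above both for 2, where 31.8% of all genes did so. The median difference was -0.48 on the log2 scale over the 51 snoRNAs and -0.02 over all genes. A difference of 1 or more below WT was seen for 12 snoRNAs and for 0.587% of all genes. The choice of the set used this comparison, so nothing is read from these shares.

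In PML KD ESCs most snoRNAs had more signal than in WT ESCs. Both PML KD arrays lay above both WT arrays for 44 of the 51, where 43.9% of all genes did so, and below both for 3, where 32.8% of all genes did so. The median difference was 0.61 over the snoRNAs and 0.09 over all genes. A difference of 1 or more above WT was seen for 6 snoRNAs and for 1.15% of all genes. This comparison too was used in choosing the set.

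Both patterns held at once for 39 snoRNAs, 24 box C/D and 15 H/ACA: above WT on both arrays at day 0 and below WT on both arrays at day 4. Of all genes, 17.1% had this pattern. Put by group, the highest of the 4 group means was in WT EBs for 30 snoRNAs, in PML KD ESCs for 20 and in PML KD EBs for 1, and in no case in WT ESCs. The lowest mean was in PML KD EBs for 13 snoRNAs, in WT EBs for 2, in PML KD ESCs for 6 and in WT ESCs for 30.

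**Figure D1:**
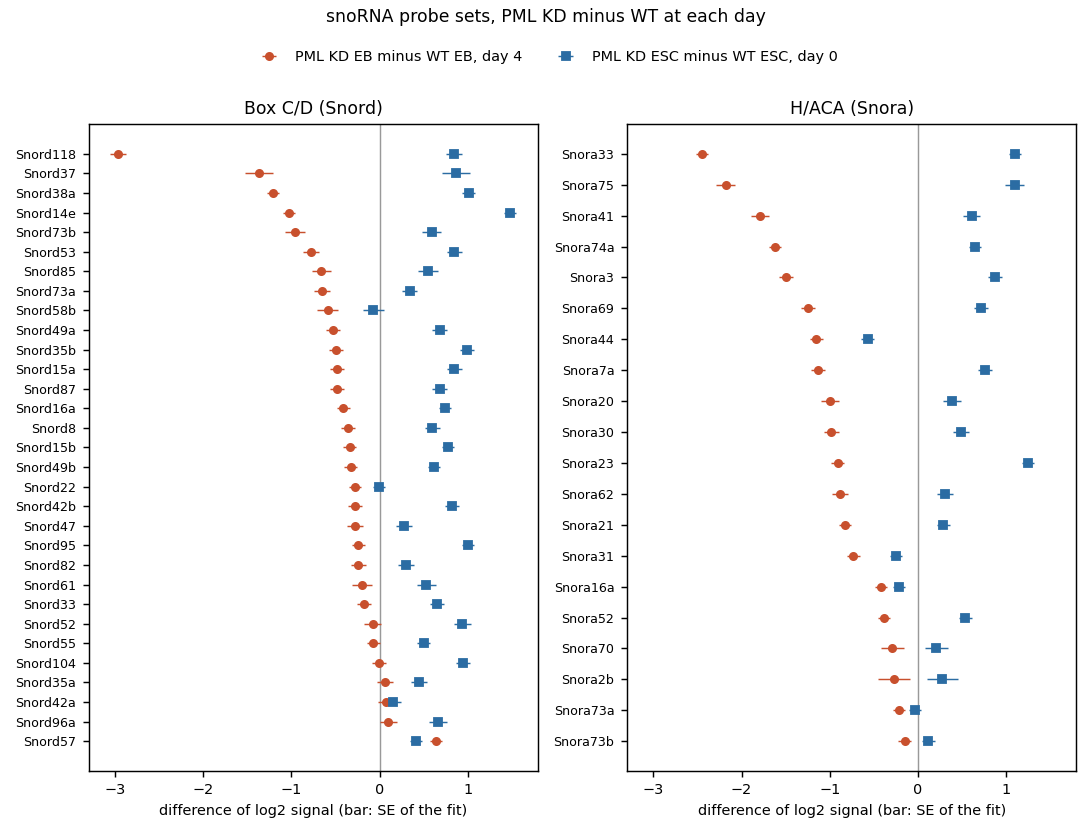
Difference of log2 signal, PML KD minus WT, for the 31 box C/D and 20 H/ACA snoRNAs (rows), as EBs at day 4 (circles) and as ESCs at day 0 (squares); bars are the SE of the fit and n = 2 arrays per group. Circles lie left of 0 for 47 snoRNAs and squares right of 0 for 45, and the widest gap between them is that of Snord118.

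The largest difference at day 4 was that of Snord118, the U8 RNA, a box C/D snoRNA that in frog oocytes is needed to process the precursor of the 5.8S and 28S ribosomal RNAs and guides no known methylation. Its log2 signal was 8.59 and 8.62 in PML KD EBs, 11.66 and 11.49 in WT EBs, 9.06 and 9.19 in PML KD ESCs and 8.22 and 8.35 in WT ESCs. WT EBs stood alone, far above the other 6 arrays, which lay within about 1 log2 unit of each other. The difference was -2.97 ± 0.09 at day 4 and 0.84 ± 0.09 at day 0 (SE, n = 2 arrays per group), and no gene of the 19938 had a lower value at day 4. Snord118 is also the only 1 of the 51 that lies in no other gene of the RefSeq gene table. It is known to be transcribed from its own promoter.

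A difference of at least 1 in both knockdown comparisons, with opposite signs, was reached by 4 snoRNAs: Snora33, Snora75, Snord14e and Snord38a. Just outside it lay Snora3, with -1.50 at day 4 and 0.88 at day 0, and Snora23, with -0.91 at day 4 and 1.25 at day 0. All of them lie within other genes.

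Snora33, an H/ACA RNA in the ribosomal protein gene Rps12, had 10.63 and 10.57 in PML KD EBs, 13.07 and 13.01 in WT EBs, 11.95 and 12.03 in PML KD ESCs and 10.90 and 10.89 in WT ESCs. The 4 groups did not overlap, with WT EBs on top and PML KD EBs at the bottom. Its differences were -2.45 ± 0.07 at day 4 and 1.10 ± 0.07 at day 0.

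Snora75, the U23 RNA, lies in the gene of nucleolin (Ncl), an abundant nucleolar protein. It had 9.28 and 9.15 in PML KD EBs, 11.55 and 11.25 in WT EBs, 10.45 and 10.35 in PML KD ESCs and 9.30 and 9.31 in WT ESCs. PML KD EBs and WT ESCs were nearly level, and WT EBs were the highest. The differences were -2.18 ± 0.11 at day 4 and 1.10 ± 0.11 at day 0.

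Snord14e is a copy of the U14 RNA, which in yeast takes part in making 18S ribosomal RNA, and lies in the chaperone gene Hspa8. It had 12.34 and 12.26 in PML KD EBs, 13.33 and 13.34 in WT EBs, 13.49 and 13.47 in PML KD ESCs and 11.97 and 12.02 in WT ESCs. Here PML KD ESCs, not WT EBs, were the highest, and the day 0 difference of 1.48 ± 0.07 was the largest of the 51. At day 4 the difference was -1.03 ± 0.07. The 2 probe sets that the annotation gives to Snord14d, Snord14c and Hspa8 together are not among the 51 and had medians of 0.01 at day 4 and 0.35 at day 0. Near-identical copies may share hybridising RNA.

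Snord38a, a box C/D RNA, had 9.63 and 9.56 in PML KD EBs, 10.84 and 10.77 in WT EBs, 10.35 and 10.31 in PML KD ESCs and 9.30 and 9.35 in WT ESCs. WT EBs were the highest and WT ESCs the lowest group, and no groups overlapped. The differences were -1.21 ± 0.07 at day 4 and 1.01 ± 0.07 at day 0.

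**Figure D2:**
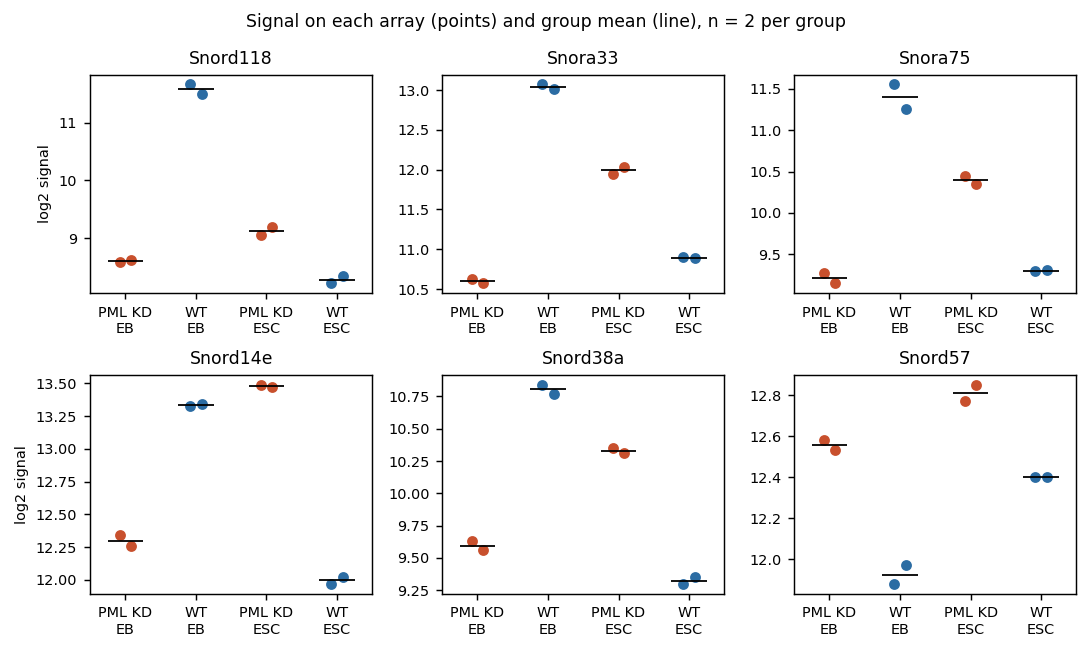
Log2 signal of 6 snoRNAs on each of the 8 arrays, with points for arrays and a line for the mean of the 2 arrays of a group; each panel has its own vertical axis, which does not start at 0. WT EBs are the highest group for Snord118, Snora33, Snora75 and Snord38a and the lowest for Snord57, and PML KD ESCs are the highest for Snord14e.

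Further H/ACA RNAs had large values at day 4. Snora41, in the elongation factor gene Eef1b2, was at 8.59 and 8.33 in PML KD EBs and 10.23 and 10.27 in WT EBs, a difference of -1.79 ± 0.10. Snora74a, the U19 RNA of the non-coding host Snhg4, was at 10.82 and 10.83 in PML KD EBs and 12.42 and 12.48 in WT EBs, a difference of -1.62. Snora3, in the ribosomal protein gene Rpl27a, was at 11.10 and 11.13 in PML KD EBs and 12.60 and 12.62 in WT EBs. In none of the 3 did the groups overlap at day 4, and at day 0 all 3 were above WT, by 0.61 for Snora41, 0.65 for Snora74a and 0.88 for Snora3.

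At day 0 the second largest value was that of Snora23, an H/ACA RNA in the importin gene Ipo7, with 12.41 and 12.42 in PML KD ESCs and 11.19 and 11.13 in WT ESCs, a difference of 1.25. Snord35b, a box C/D RNA, had 11.56 and 11.65 in PML KD ESCs and 10.55 and 10.68 in WT ESCs, a difference of 0.99. Snord104 had 13.67 and 13.72 in PML KD ESCs and 12.67 and 12.81 in WT ESCs, a difference of 0.95. The groups did not overlap for any of the 3, and the arrays of a group were close together. At day 4 they parted: Snora23 was at 11.81 and 11.80 in PML KD EBs and 12.69 and 12.74 in WT EBs, while Snord104 was at 13.38 and 13.48 in PML KD EBs and 13.44 and 13.45 in WT EBs, which overlap.

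Among box C/D RNAs only Snord118, Snord37, Snord38a and Snord14e were lower by 1 or more at day 4. Snord37, in the elongation factor gene Eef2, had 8.17 and 7.90 in PML KD EBs, 9.34 and 9.48 in WT EBs, 8.65 and 9.12 in PML KD ESCs and 8.09 and 7.93 in WT ESCs. Its arrays of a group were farther apart than those of the other RNAs named here, and its SE of 0.16 against differences of -1.37 at day 4 and 0.87 at day 0 was accordingly larger.

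Snord57, a box C/D RNA encoded within Nop56, the gene of a core box C/D protein, ran against most of the others. It had 12.58 and 12.53 in PML KD EBs, 11.88 and 11.97 in WT EBs, 12.77 and 12.85 in PML KD ESCs and 12.40 and 12.40 in WT ESCs. WT EBs were the lowest group and the PML KD arrays were above WT at both days, by 0.64 ± 0.07 at day 4 and 0.41 ± 0.07 at day 0.

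The H/ACA class differed more from WT at day 4 and the box C/D class more at day 0. At day 4 the median difference was -0.95 over the 20 H/ACA RNAs (from -2.45 to -0.15) and -0.34 over the 31 box C/D RNAs (from -2.97 to 0.64). At day 0 it was 0.44 over the H/ACA RNAs (from -0.57 to 1.25) and 0.66 over the box C/D RNAs (from -0.07 to 1.48). The H/ACA median was -0.83 and the box C/D median -0.22 at day 4 after a shift of all arrays to a common median, and 0.21 and 0.44 at day 0.

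The class medians on single arrays are medians of signal and can fall on different RNAs on different arrays. Their gaps need not equal the median differences above. The H/ACA median was 10.51 and 10.46 in PML KD EBs, 11.84 and 11.80 in WT EBs, 10.80 and 10.78 in PML KD ESCs and 10.53 and 10.50 in WT ESCs. The box C/D median was 12.17 and 12.13 in PML KD EBs, 12.13 and 12.01 in WT EBs, 12.36 and 12.54 in PML KD ESCs and 11.87 and 11.91 in WT ESCs. WT EBs were thus the top group of the H/ACA median, with PML KD EBs close to WT ESCs, while PML KD ESCs were the top group of the box C/D median. The box C/D median signal was no lower in PML KD EBs than in WT EBs, although the median of the box C/D differences was -0.34. By single RNAs, 18 of the 20 H/ACA RNAs had their highest mean in WT EBs, against 12 of the 31 box C/D RNAs, and 18 box C/D RNAs had it in PML KD ESCs, against 2 H/ACA RNAs.

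The classes also differ in brightness and length. The median of the mean log2 signal was 11.00 for H/ACA and 12.31 for box C/D RNAs, and the median length was 125 bases for H/ACA and 68 bases for box C/D RNAs. Split at the median mean log2 signal of the 51, which was 11.47, the day 4 median was -0.99 for the 12 dimmer and -0.67 for the 8 brighter H/ACA RNAs, and -0.65 for the 13 dimmer and -0.28 for the 18 brighter box C/D RNAs. This split was added after the data were seen. At day 0 it gave 0.44 for the dimmer and 0.33 for the brighter H/ACA RNAs, and 0.84 for the dimmer and 0.63 for the brighter box C/D RNAs. Within each brightness range the H/ACA median was farther from 0 at day 4 and nearer to 0 at day 0. The median length was 119 bases for the dimmer and 135 for the brighter H/ACA RNAs. It was 68 bases for the dimmer and 73.5 for the brighter box C/D RNAs. The split by brightness thus separated lengths far less than the classes do. The part of brightness and of length in the class difference was not tested. None of the 51 was below the 25th percentile of all genes in mean signal.

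**Figure D3:**
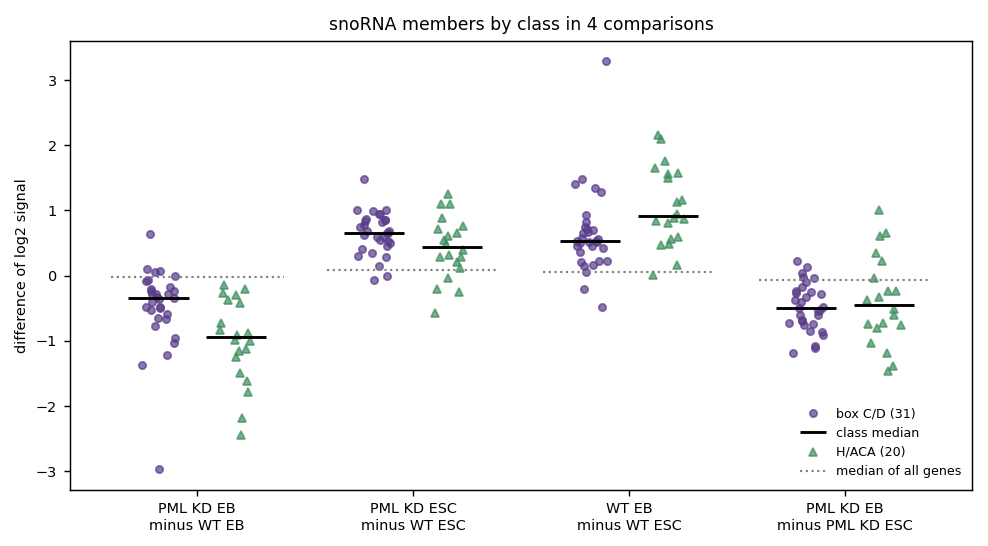
Difference of log2 signal of each box C/D (circles) and H/ACA (triangles) snoRNA in 4 comparisons, with the class median (bar) and the median of all 19938 genes (dotted line). The H/ACA median lies below the box C/D median in PML KD EBs minus WT EBs (-0.95 and -0.34) and above it in WT EBs minus WT ESCs (0.91 and 0.53).

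The comparison of WT EBs with WT ESCs asked how snoRNA signals change as ESCs differentiate. Of the 51 snoRNAs 42 rose, where 24.3% of all genes rose, and 1 fell, where 25.6% of all genes fell (limma, adjusted p under 0.05 over all genes). The median difference was 0.66 over the snoRNAs and 0.06 over all genes, and 14 snoRNAs and 3.17% of all genes were higher by 1 or more. By class, 18 of 20 H/ACA RNAs rose and none was below 0, with a median of 0.91, and 24 of 31 box C/D RNAs rose and 1 fell, with a median of 0.53. This comparison shares its arrays with both knockdown comparisons, for which the set was selected, and RNAs below WT at day 4 and above WT at day 0 tend to be higher in WT EBs than in WT ESCs, so its calls are no independent support for them. After a shift of all arrays to a common median the medians were 0.70 for H/ACA and 0.32 for box C/D RNAs, and 37 rose.

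The largest rise was that of Snord118, by 3.29 ± 0.09 (adjusted p = 9.11e-08), followed by Snora33 with 2.15 ± 0.07 (adjusted p = 2.36e-07) and Snora75 with 2.10 ± 0.11 (adjusted p = 1.93e-06). Snora74a rose by 1.76 ± 0.07 (adjusted p = 4.64e-07), Snora41 by 1.65 (adjusted p = 3.48e-06) and Snora3 by 1.57 ± 0.08 (adjusted p = 1.41e-06). Among box C/D RNAs Snord38a rose by 1.48 ± 0.07 (adjusted p = 1.53e-06), Snord37 by 1.40 (adjusted p = 0.000124) and Snord14e by 1.34 ± 0.07 (adjusted p = 2.22e-06). Each RNA named here was also lower by 1 or more in PML KD EBs than in WT EBs. Both comparisons use the same WT EB arrays, so this overlap is no separate support. Snora23 and Snora31 rose about as far, by 1.56 (adjusted p = 9.76e-07) and 1.49 (adjusted p = 1.6e-06), and were lower by 0.91 and 0.73 in PML KD EBs.

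Snord57 was the snoRNA that fell, by 0.48 ± 0.07 (adjusted p = 0.000811). In the deposited workbook after quantile normalization its value was -0.05 (adjusted p = 0.594). Snord35a, from the ribosomal protein gene Rpl13a, whose box C/D RNAs have been linked to lipotoxic stress in rodent cells, had 12.34 and 12.35 in PML KD EBs, 12.27 and 12.29 in WT EBs, 12.43 and 12.62 in PML KD ESCs and 12.02 and 12.14 in WT ESCs, and with 0.21 in WT over time (adjusted p = 0.0785) it did not pass. It did pass after quantile normalization (0.37, adjusted p = 0.00577) and with an intensity trend (adjusted p = 0.0026). In the workbook it passed with 0.29 as deposited (adjusted p = 0.0399) and 0.57 after quantile normalization (adjusted p = 0.00259). The workbook is apparently normalized within each day, and as deposited its median over all genes was -0.256 in WT over time. Snord95, from Rack1, the gene of a ribosome-bound scaffold protein, did not pass either, with 0.15 (adjusted p = 0.105), although it was at 10.77 and 10.72 in PML KD ESCs and 9.72 and 9.77 in WT ESCs. Its value in WT over time was 0.28 after quantile normalization (adjusted p = 0.0118), 0.31 in the workbook after it (adjusted p = 0.0213) and -0.06 after a shift to a common median, and an intensity trend gave an adjusted p of 0.0493.

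Between the PML KD groups most differences had the other sign. As these groups also differ in Y-linked transcripts, time and other differences between the cultures cannot be told apart. PML KD EBs had less signal than PML KD ESCs, on both arrays against both, for 38 of the 51 snoRNAs, where 41.2% of all genes did so, and more for 6, where 33.3% of all genes did so. The median difference was -0.50 for the box C/D and -0.44 for the H/ACA RNAs, against -0.06 over all genes. These values follow from the other 3 comparisons and are given without a test. In the deposited workbook, which holds 39 of the snoRNAs, 16 of them H/ACA, the H/ACA median was -0.80 as deposited and -0.81 after quantile normalization. The workbook is apparently normalized within each day, and as deposited its median over all genes was -0.232 in this comparison. Snora33 differed by -1.39 ± 0.07, Snora75 by -1.19 and Snord14e by -1.18. Snora31, in the gene Tpt1 of the translationally controlled tumour protein, was at 11.42 and 11.41 in PML KD EBs and 10.34 and 10.46 in PML KD ESCs and so higher by 1.01, and it was higher by 1.49 in WT EBs than in WT ESCs (adjusted p = 1.6e-06).

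Nearly all of these RNAs lie inside other genes. By the RefSeq gene table (GRCm38.p6) 50 of the 51 lie within the span of another gene, 48 of them in 1 gene only: 37 in a protein-coding and 11 in a non-coding host. The strand of the host was checked for 35. Ribosomal protein genes are the largest group, with 21 snoRNAs in 16 genes. Eef1b2, Eef2, Ncl and Nop56 are among the other coding hosts.

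The coding hosts mostly differed less than their snoRNAs. A single host with its own value in the array table was available for 26 snoRNAs, in 22 hosts, all of them coding. At day 4 the median difference was -0.76 for these snoRNAs and -0.06 for their hosts, and 3 snoRNAs lay above their host. At day 0 it was 0.56 for the snoRNAs and -0.26 for the hosts, and 24 lay above. In WT over time it was 0.70 for the snoRNAs and -0.20 for the hosts, and 25 lay above. Pearson's r over the 26 pairs, which share arrays and in part hosts, was -0.00592 at day 4, 0.0261 at day 0 and -0.033 in WT over time. In the workbook after quantile normalization 35 snoRNAs in 29 hosts had day 4 medians of -0.66 against -0.04 for the hosts and day 0 medians of 0.59 against -0.16.

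Several named RNAs lay far from their hosts. Rps12 differed by -0.27 at day 4 and -0.19 at day 0, where its Snora33 had -2.45 and 1.10. Ncl differed by -0.07 at day 4 and -0.04 at day 0, where its Snora75 had -2.18 and 1.10. Hspa8 differed by 0.24 at day 4 and -0.19 at day 0, where its Snord14e had -1.03 and 1.48. Tpt1 and its Snora31 both had -0.25 at day 0, but they parted elsewhere. Tpt1 had -0.14 at day 4 and -0.27 in WT over time, where Snora31 had -0.73 and 1.49. Nop56 and its Snord57 had the same sign in all 3 comparisons, with 0.20, 0.36 and -0.53 for Nop56 at day 4, at day 0 and in WT over time.

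**Figure D4:**
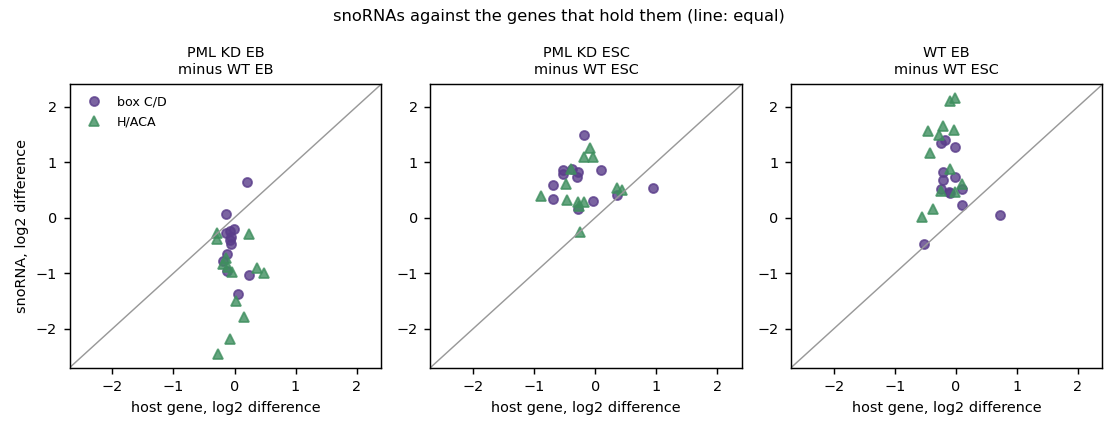
Difference of log2 signal of each snoRNA (vertical axis) against that of its host gene (horizontal axis) in 3 comparisons, for the 26 snoRNAs with a host in the array table; the line marks equal differences. The points spread along the vertical axis, with 3 of 26 above the line at day 4, 24 of 26 at day 0 and 25 of 26 in WT over time.

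A host shared by 2 snoRNAs allows them to be compared within 1 gene. The 10 such hosts showed like and unlike pairs. In Ncl, Snora75 had -2.18 at day 4 and 1.10 at day 0, and Snord82, a box C/D RNA, had -0.24 and 0.30. In Rpl23a, Snord42a had 0.07 and 0.15, and Snord42b had -0.28 and 0.82. Pairs that ran close were Snord15a with -0.48 and 0.85 and Snord15b with -0.34 and 0.78 in Rps3, and Snora73a with -0.21 and -0.03 and Snora73b with -0.15 and 0.12 in Snhg3. Members of a pair with near-identical sequence, such as the copies of U15 or U17, may share hybridising RNA.

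At day 0 the RNAs of 3 non-coding hosts lay lower than those of the other non-coding hosts, a grouping made after the values were seen. Snhg1 holds Snord22 (U22, needed in frog oocytes for 18S ribosomal RNA), Snhg3 holds Snora73a and Snora73b (U17, whose yeast counterpart is needed for the same rRNA), and Snhg12 holds Snora16a and Snora44. These 5 RNAs had a median of -0.03 in PML KD ESCs minus WT ESCs, from -0.57 to 0.12, and 4 of the 5 were below 0. Of these 4, Snord22 at -0.01 and Snora73a at -0.03 overlapped WT, and only the RNAs of Snhg12 lay below WT without overlap. The 6 RNAs of other non-coding hosts had a median of 0.68, from 0.62 to 0.95, and the 21 of ribosomal protein genes one of 0.65, from -0.07 to 1.10. The 16 RNAs of other coding hosts had a median of 0.58, from -0.25 to 1.48. The lowest of them, Snora31, lay below WT at day 0 and was higher in PML KD EBs than in PML KD ESCs, like the RNAs of Snhg12. In PML KD EBs minus WT EBs and in WT over time the 5 RNAs were on the same side as the others, with medians of -0.28 and 0.81. They were higher in PML KD EBs than in PML KD ESCs, by 0.23 to 0.66, groups that also differ in Y-linked transcripts.

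Snora44 was the lowest of the 51 at day 0. It had 12.02 and 11.96 in PML KD EBs, 13.15 and 13.13 in WT EBs, 11.81 and 11.71 in PML KD ESCs and 12.32 and 12.35 in WT ESCs. Both PML KD groups were below their WT group, by 1.15 at day 4 and 0.57 at day 0, with no overlap. Snora16a of the same host had 12.98 and 12.97 in PML KD EBs, 13.40 and 13.41 in WT EBs, 12.57 and 12.69 in PML KD ESCs and 12.84 and 12.84 in WT ESCs, again with both PML KD groups below their WT group and with smaller steps.

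The start regions of these 3 hosts are shown because hosts of snoRNAs often begin with a run of pyrimidines, the mark of genes whose translation follows growth signals, and because their RNAs were low among those of non-coding hosts at day 0. Each line gives the 40 bases before and the 30 bases from the RefSeq start (GRCm38.p6), 5′ to 3′ on the strand of the gene, with the longest run of C and T between 20 bases before and 30 bases from the start in capitals. They are Snhg1 at chr19:8723447-8723516 on the plus strand, Snhg12 at chr4:132308638-132308707 on the plus strand and Snhg3 at chr4:132353657-132353726 on the minus strand.
Snhg1: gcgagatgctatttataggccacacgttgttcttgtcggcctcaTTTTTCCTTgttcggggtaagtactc
Snhg12: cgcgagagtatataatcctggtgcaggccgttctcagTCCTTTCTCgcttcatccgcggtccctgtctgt
Snhg3: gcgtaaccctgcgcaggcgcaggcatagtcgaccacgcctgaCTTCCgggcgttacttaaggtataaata
The run is 9 bases long in Snhg1 and in Snhg12, and 12.6% of 32851 promoters hold one as long. In Snhg3 it is 5 bases long, as in 64.2% of the promoters, and 5 is also the median over all of them. No run begins at the annotated start itself: the first base is at position 5 in Snhg1, -3 in Snhg12 and 3 in Snhg3. Whether any of these runs is the mark named above was not tested. The signals of these 3 host transcripts were not analysed here.

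The messages of proteins that bind snoRNAs ran another course. Of the 4 measured box C/D core proteins, all 4 fell in WT EBs relative to WT ESCs, with Fbl, the methyltransferase fibrillarin, lower by 0.56 (adjusted p = 0.000389) and Snu13 by 0.75 (adjusted p = 7.39e-05). Of the 4 H/ACA core proteins 3 fell, Nop10 by only 0.26 (adjusted p = 0.0496), with Dkc1, the pseudouridine synthase dyskerin, lower by 0.97 (adjusted p = 3.11e-05), and Nhp2 was at -0.11 (adjusted p = 0.275). In WT over time 24.3% of all genes rose and 25.6% fell. Of all genes 27.5% rose and 24.9% fell in PML KD ESCs relative to WT ESCs, and 16.8% rose and 11.8% fell in PML KD EBs relative to WT EBs. At day 0, 3 of 4 box C/D proteins fell and Nop56 rose by 0.36 (adjusted p = 0.00344), and 3 of 4 H/ACA proteins fell. At day 4 Snu13 rose by 0.48 (adjusted p = 0.00243), the only call among the 8 core proteins.

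Factors that assemble snoRNAs with their proteins were counted likewise. Of 10 measured, 9 fell in WT over time, where 25.6% of all genes fell, and 9 fell in PML KD ESCs, where 24.9% did. At day 4, where 16.8% of all genes rose, the helicases Ruvbl1 and Ruvbl2 rose by 0.29 (adjusted p = 0.0159) and 0.33 (adjusted p = 0.00838). Nufip1, which joins box C/D proteins to the assembly machinery, fell by 0.42 (adjusted p = 0.0083), where 11.8% of all genes fell. Of 10 processing and decay enzymes 6 fell in WT over time. In PML KD ESCs 5 fell and 2 rose, where 24.9% and 27.5% of all genes did. Dbr1, the enzyme that opens intron lariats and so frees intronic snoRNAs, fell by 1.22 in PML KD ESCs (adjusted p = 4.79e-05) and by 1.14 in WT over time (adjusted p = 4.55e-05). In PML KD EBs 1 of the 10 passed, near the 11.8% of all genes that fell there: Tent4b, a poly(A) polymerase of RNA decay, fell by 0.27 (adjusted p = 0.025).

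Spliced non-coding hosts had measured values for 5 of the 16 listed. All 5 rose in WT over time, where 24.3% of all genes rose. In PML KD ESCs 3 rose and 2 fell, where 27.5% and 24.9% of all genes did. In PML KD EBs 3 fell, where 11.8% of all genes did. The 2 that fell in PML KD ESCs were Meg3, with -1.42, and Rian, with -0.70. Both were higher in PML KD EBs than in PML KD ESCs, by 2.19 and 1.10. Snhg5 was at 11.02 and 10.90 in PML KD EBs, 11.47 and 11.54 in WT EBs, 12.01 and 12.09 in PML KD ESCs and 11.02 and 10.99 in WT ESCs. PML KD ESCs were the highest group, as for Snord14e. Gas5, one of the 2 genes whose span holds Snord47, differed by -0.14 at day 4, 0.26 at day 0 and 0.27 in WT over time. Snord47 had -0.28, 0.28 and 0.53. In the workbook after quantile normalization Gas5 differed far more, by -1.3 at day 4, 1.29 at day 0 and 1.63 in WT over time. The size of its differences thus depends on the source of the values.

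Other short non-coding RNAs show how far the pattern reached beyond the 51. Of 14 measured, 8 fell in PML KD EBs relative to WT EBs, where 11.8% of all genes did. In PML KD ESCs relative to WT ESCs 3 rose and 6 fell, where 27.5% and 24.9% of all genes did. In WT over time 8 rose, where 24.3% of all genes did. The Cajal body RNAs, which guide the same modifications on spliceosomal RNA, were, like most snoRNAs, below WT at day 4 and above WT at day 0: Scarna13 differed by -1.33 at day 4 and 0.92 at day 0, Scarna17 by -0.38 and 0.82, and Scarna8 by -0.51 and 0.38. Rnu3a, the U3 RNA, a box C/D RNA under another kind of symbol, differed by -0.74 at day 4 and -0.23 at day 0 and was higher by 1.97 in WT EBs than in WT ESCs. Rny1, a Y RNA, was lower by 2.45 in PML KD ESCs, with 9.18 and 9.30 there and 11.70 and 11.69 in WT ESCs.

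The RNAs of other ribonucleoproteins differed among themselves. Rmrp, the RNA of RNase MRP, had 14.87 and 14.95 in PML KD EBs, 14.85 and 14.88 in WT EBs, 14.59 and 14.62 in PML KD ESCs and 14.87 and 14.85 in WT ESCs. Rn7sk had -0.02 at day 4, -0.25 at day 0 and -0.03 in WT over time. Terc, the telomerase RNA and itself of the H/ACA kind, had -0.03 at day 4, 0.10 at day 0 and 0.19 in WT over time. Rpph1, the RNA of RNase P, had -0.68 at day 4 (adjusted p = 0.000313), -0.20 at day 0 and -0.03 in WT over time. Rny3, another Y RNA, had -0.99 at day 4 (adjusted p = 6.74e-05), 0.08 at day 0 and 0.72 in WT over time.

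Of all genes outside the set, the profile over the 8 arrays most like the median of Snora33, Snora75, Snord14e and Snord38a was that of Smc5, a chromosome maintenance gene, with a Pearson r of 0.9955. Khdc1a followed with 0.9909, Gnptg with 0.985, Scarna13 with 0.9825 and Odf2 with 0.9819. The differences of Smc5 were smaller than those of the snoRNAs, with -0.43 at day 4, 0.21 at day 0 and 0.44 in WT over time. These genes are the best matches of the whole table to snoRNAs chosen for this shape. Of all genes, 17.1% lay above WT at day 0 and below WT at day 4 without overlap, so nothing is read from the high r.

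Markers of cell types moved with both knockdown comparisons. Of all genes 16.8% rose and 11.8% fell at day 4, and 27.5% rose and 24.9% fell at day 0. In PML KD EBs relative to WT EBs 8 of the 12 measured EB markers fell and 2 rose, with a median of -0.77, and of the 8 ESC markers 4 rose and 2 fell, with a median of 0.21. The median signal of the EB markers was 9.53 in PML KD EBs (from 7.67 to 12.84), 10.43 in WT EBs (from 7.52 to 12.97), 7.71 in PML KD ESCs (from 6.16 to 9.07) and 7.90 in WT ESCs (from 6.28 to 9.14). Of the 7 fibroblast markers 5 rose in PML KD EBs, with a median signal of 8.31 in PML KD EBs and 7.96 in WT EBs. In PML KD ESCs relative to WT ESCs 5 of the 8 ESC markers fell, with a median of -0.55, and 4 fibroblast markers rose. Of the 12 EB markers 3 fell, near the share of all genes, and 1 rose. No marker is listed at 0 on these arrays. The part of the ESC, EB and fibroblast markers in the snoRNA differences was not tested.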

How the data were processed

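RNA of 8 samples was measured on Affymetrix mouse gene arrays. The deposited array table holds 1 linear intensity value per probe set, 35556 in all, made by the authors with the Transcriptome Analysis Console per the submitters' processing notes. The sources used here do not give its background correction and normalization. Array medians ran from 169 to 199 in linear signal, and arrays of a group correlated at 0.995 to 0.997, which with 2 arrays per group limits the precision. A deposited workbook holds log2 values that the authors computed per Ensembl gene over constitutive exons, per the file headers, apparently normalized within each day. Its 4 columns of group means were not used.

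Intensities entered as log2 values, without an added constant. The platform table lists 23410 probe sets, 21789 with 1 symbol, which gave 19938 genes at the brightest probe set each. Of 92 snoRNA probe sets 56 had 1 symbol, for 51 snoRNAs. For 5 of them 2 probe sets existed, with gaps of at most 0.19. The 8 arrays entered 1 model of 4 group means with limma 3.58.1 (functions lmFit and eBayes, R 4.3.3), which leaves 4 residual degrees of freedom. P-values were adjusted over the whole table by Benjamini and Hochberg's method, and adjusted values under 0.05 were called. Each ± is the SE of a difference. The fit was tested on simulated data.

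The snoRNAs, the lists of other genes and the rule for naming were chosen with earlier results of these data known. The rule named the 8 largest differences in each direction of the knockdown comparisons without overlap and of the called changes in WT over time, any snoRNA past 1 in both knockdown comparisons, those sharing its host, and the listed genes, and the text gives a selection. Hosts are genes of the RefSeq table (GRCm38.p6) whose span holds the snoRNA. Start sequences are RefSeq's, and 6 of 8 non-coding hosts matched. Replicate numbers were not taken to pair samples, since over the 6 group pairs the correlations of same-numbered deviations ran from -0.0821 to 0.0852. Alternatives were other scalings, probe set choices, a filter, an added constant, fewer arrays, a replicate block, an intensity trend and the workbook. Some host genes are not reported here.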

Additional observations from a re-analysis of the deposited data

Results flagged for a closer look

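For 13 of the 19 snoRNAs named by the rule, both PML KD arrays lay below both WT arrays at day 4 and above both at day 0. The difference between these effects, day 4 minus day 0, was not tested, since the snoRNAs were chosen for it, and 17.1% of all genes had the same pattern. Among box C/D RNAs it was -3.81 for Snord118, -2.52 for Snord14e, -2.25 for Snord37, -2.22 for Snord38a, -1.47 for Snord35b and -1.24 for Snord95. Among H/ACA RNAs it was -3.54 for Snora33, -3.28 for Snora75, -2.39 for Snora41, -2.38 for Snora3, -2.27 for Snora74a, -2.16 for Snora23 and -1.97 for Snora69.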

How the results depend on the processing

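With 2 arrays per group, an unstated normalization and no probe-level background, small differences of single snoRNAs are uncertain, and class medians moved with the scaling while keeping their sign under every alternative run. Among named snoRNAs the sign turned at day 4 for Snord35a (-0.04 after quantile normalization) and for Snord104, which was at -0.01 (0.10 after a median shift, 0.04 without PML KD EB array 1), in WT over time for Snord95, which had not passed (-0.06 after a median shift), and in PML KD EBs against ESCs for Snord57 (0.02 in the workbook as deposited). The cause was not tested. In WT over time 1 call was lost, that of Snord57, and 7 were gained, those of Snord35a and Snord95.

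In the order H/ACA then box C/D, quantile normalization gave medians of 0.49 and 0.80 at day 0, 1.02 and 0.63 in WT over time and -0.54 and -0.60 in PML KD over time, with 2 falls in WT. A common median gave -0.83 and -0.22 at day 4, 0.21 and 0.44 at day 0, 0.70 and 0.32 in WT, with 2 falls, and -0.31 and -0.37 in PML KD over time. It moved the median of all genes from 0.09 to -0.14 at day 0. An added constant of 16 gave an H/ACA median of -0.92 at day 4. In the workbook as deposited the medians were 0.41 for H/ACA at day 0, 0.86 and 0.41 in WT, with 2 falls, and -0.80 for H/ACA in PML KD over time. The workbook is apparently normalized within each day, and its medians over all genes were then -0.256 in WT and -0.232 in PML KD over time. After quantile normalization it gave -1.0 and -0.48 at day 4, 0.54 and 0.85 at day 0, 1.09 and 0.70 in WT, with 0 falls among 39 snoRNAs and 32 rises, and -0.81 and -0.61 in PML KD over time.

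Leaving out 1 array at a time gave H/ACA medians of -0.99 to -0.90 at day 4, 0.35 to 0.53 at day 0, 0.90 to 0.94 in WT and -0.56 to -0.40 in PML KD over time. Box C/D medians ran from -0.35 to -0.33, 0.63 to 0.71, 0.50 to 0.55 and -0.53 to -0.45 in the same order. From 39 to 41 snoRNAs rose in WT over time. The replicate number as a block, which the arrays do not bear out as a pairing, left 42 rises and 1 fall and changed no call of a named snoRNA.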

Other observations

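Probe sets that the annotation gives to several symbols were not counted among the 51, and those of Snord116l1 and Snord116l2, box C/D RNAs of the imprinted Prader-Willi region, ran another course. These 24 probe sets, 7 of them distinct, were looked up after their values were seen. Their median log2 signal was 10.47 and 10.13 in PML KD EBs, 10.36 and 10.29 in WT EBs, 7.38 and 7.82 in PML KD ESCs and 8.44 and 8.41 in WT ESCs. EBs lay above ESCs in both lines, by 2.70 in PML KD and 1.90 in WT, and PML KD and WT overlapped at day 4 and differed by -0.83 at day 0. Of the other probe sets with several symbols, those of H/ACA RNAs differed at day 4 by -1.04 (Snora43), -0.82 (Snora28) and -0.40 (Snora24), and at day 0 by 0.52, -0.12 and 0.09. Those of box C/D RNAs differed at day 4 by -0.20 (Snord34), -0.14 (Snord14a), -0.08 (Snord32a), 0.01 (Snord14d and Snord14c), 0.17 (Snord68), 0.22 (Snord1c and Snord1b) and 0.24 (Snord7), and at day 0, in the same order, by 0.45, 0.52, 0.12, 0.35, 0.36, -0.05 and -0.01.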
